A study of Drosophila melanogaster with 17 samples.

Results

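The comparison described here is that of mushroom body neurons of Drosophila melanogaster 5 h after puparium formation with the same neurons in white prepupae, at 0 h. It takes in all 3 arrays labelled 5 h and all 7 labelled 0 h, 10 of the 17 arrays of a time course whose other 7 arrays are of larvae at -18 h, and it covers 13966 of 14010 features, leaving out 44 control probe sets. Every animal had the genotype yw;UAS-mCD8::GFP/+;;OK107-GAL4, so the neurons of all groups carried GFP on their membranes under the control of OK107-GAL4, which is active in the neurons of the mushroom body and not in its gamma neurons alone. The newly formed white prepupae were either used at once, for 0 h, or aged to 5 h. The labels describe 0 h as the start of axon pruning and 5 h as the time of its earliest signs. The GFP-marked cell bodies were cut by laser from frozen sections of 15 micrometres. About 100 cell bodies were taken in a capture, 40 captures made up the RNA of 1 array, and about 22 ng of it went through 2 rounds of linear amplification. The labels call the replicates biological and give no number of animals per pool, so the p-values measure the spread between pooled samples. In such bulk RNA, fewer cells of a type and less RNA per cell cannot be told apart.

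The mushroom body is the insect brain centre for olfactory learning. Its gamma neurons grow branched axons in the larva, lose these branches in the early pupa by local degeneration, and later grow adult axons. The steroid hormone ecdysone sets off this pruning through its receptor, a dimer of EcR and Ultraspiracle. In many tissues a pulse of ecdysone switches on a cascade in which early transcription factors are induced within hours, turn on later genes and are then themselves switched off, and the ubiquitin-proteasome system acts downstream in the pruning neurons.

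Values are log2 RMA signals, in which background is subtracted and the probes of a probe set are combined. A difference of 1 is a 2-fold change on that scale, which compresses changes of dim transcripts. A probe set was called where limma's two-sided test, adjusted by the Benjamini-Hochberg method over all 13966 probe sets, gave p under 0.05. Changes are given as 5 h minus 0 h with the standard error of the fit. Where the values of a gene are given, those at 5 h are of arrays 1, 2 and 3 in that order, and those at 0 h are the lowest, the median and the highest of the 7 arrays. Between arrays of a group the Pearson correlation over probe sets was 0.982 to 0.992 at 0 h and 0.988 to 0.993 at 5 h, and the first principal component (30.7% of the variance) held all 3 arrays of 5 h on one side and all 7 of 0 h on the other. Some arrays stood apart. In array 3 of 5 h, 56 probe sets lay at least 1 log2 above every other of the 10 arrays, and in array 2 of 5 h there were 16, against 0 in array 1 of 5 h and in each array of 0 h. The raised genes of array 3 included cuticle and ecdysone-inducible genes and those of array 2 fat body genes, as described at the end. Of these, 5 of the 56 (8.93%) and 1 of the 16 (6.25%) were called, against 4.35% of all probe sets. The hybridisation spike-ins read 9.03 ± 0.38 (SD, n = 7) at 0 h and 8.55 ± 0.18 (SD, n = 3) at 5 h. For the eIF4a controls, the 3-prime probe set exceeded the middle one, which gauges 3-prime bias, by 2.81 ± 0.20 (SD, n = 7) and 2.58 ± 0.01 (SD, n = 3). The actin controls gave 3.08 ± 0.37 (SD, n = 7) at 0 h and 2.76 ± 0.11 (SD, n = 3) at 5 h. Those of gapdh gave 2.74 ± 0.30 (SD, n = 7) and 2.46 ± 0.09 (SD, n = 3). Among 5 such control measures no difference passed an exact two-sided permutation test over arrays (adjusted p from 0.219 to 0.933, with 0.00833 the smallest p that 120 regroupings allow). Their part in the results below was not tested.

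In the 5 h that followed puparium formation, a minority of transcripts passed the test, and most changes were small. Of all probe sets, 608 were called, which is 4.35%, with 372 higher at 5 h (2.66%) and 236 lower (1.69%). Leaving out array 1, 2 or 3 of 5 h left 378, 330 and 348 calls, most of them among the 608 (341, 313 and 330). Only 41 of the rises and 46 of the falls reached 2-fold. The groups did not overlap in 553 of the called probe sets, while they did not overlap in 1186 of all probe sets, or 8.49%. The median change of all probe sets was -0.04. Counted by gene, with each of 10844 genes represented by its probe set with the highest mean, 521 genes (4.8%) were called, 323 of them higher (2.98%) and 198 lower (1.83%). The shares of 2.98% and 1.83% are the background for the list counts below. The plot of change against mean level shows where the called probe sets lie.

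**Figure D1:**
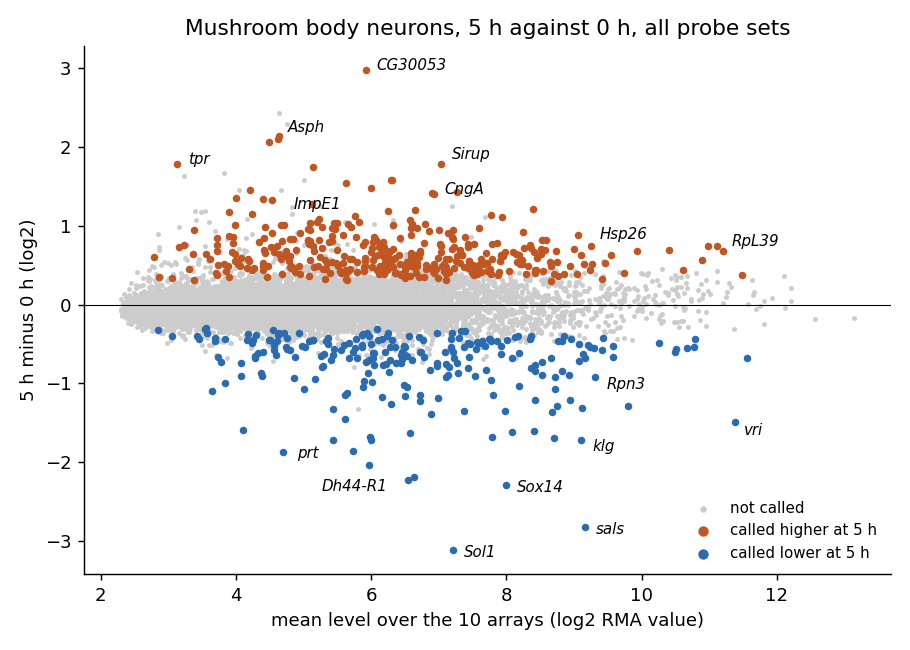
Change from 0 h to 5 h (log2) of every probe set against its mean level over the 10 arrays (log2 RMA value), with the 372 probe sets called higher and the 236 called lower in colour. Sol1 (-3.12), sals (-2.83) and Sox14 (-2.29) fell furthest among called genes with a symbol, and CG30053 (2.98) and Asph (2.14) rose furthest among them.

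Several transcription factors of the ecdysone cascade fell. Of 21 measured genes on a list of early and early-late ecdysone-responsive transcription factors, 6 were called lower (28.6%) and 0 higher, against 1.83% and 2.98% of all genes. The list's median change was -0.18 against -0.04 for all genes. The largest fall was that of Sox14, a Sox-family factor that ecdysone induces and that promotes pruning of axons and dendrites in the fly. Its transcript read 6.62, 6.27 and 6.28 log2 at 5 h and 8.28, 8.64 and 9.39 at 0 h. The groups lay far apart, and the fall was 4.9-fold (change -2.29 ± 0.18, limma adjusted p = 4.38e-06). The larval arrays averaged 6.78 ± 0.33 (SD, n = 7), with the lowest at 6.29, close to the level at 5 h.

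The transcript of vri, a basic leucine zipper factor that also serves in the circadian clock, read 10.38, 10.19 and 10.45 log2 at 5 h and 11.42, 11.82 and 12.25 at 0 h. All 3 arrays of 5 h were below all 7 of 0 h, with a change of -1.49 ± 0.14 (limma adjusted p = 1.9e-05). Its larval mean was 9.41 ± 0.39 (SD, n = 7), so vri at 5 h stood between the larval and the 0 h levels. The zinc finger gene br, an early ecdysone gene with many isoforms, read 6.48, 6.43 and 6.47 log2 at 5 h and 6.99, 7.45 and 7.66 at 0 h, a change of -0.92 ± 0.13 (limma adjusted p = 0.000604). It was lowest at 5 h in all 3 arrays, below a larval mean of 8.53 ± 0.42 (SD, n = 7). No call was given by the 2 further br probe sets, with changes of -0.21 and -0.004. Which br isoforms the probe sets measure was not analysed here.

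Among the nuclear receptors of the cascade, Hr78, an orphan receptor needed for ecdysone responses, read 8.41, 8.26 and 8.02 log2 at 5 h and 8.64, 9.16 and 9.29 at 0 h. Hr4, a receptor that acts in the middle of the cascade, read 4.91, 4.62 and 4.62 log2 at 5 h and 5.25, 5.57 and 5.88 at 0 h. In each the 5 h arrays stayed below all 0 h arrays, with changes of -0.85 ± 0.13 and -0.79 ± 0.13 (limma adjusted p = 0.00171 and 0.00187). Hr78 remained above its larval mean of 6.87 ± 0.14 (SD, n = 7) at 5 h, while Hr4 was near its own, 4.53 ± 0.25 (SD, n = 7). A second Hr4 probe set, dimmer, changed by -0.09 and was not called. The zinc finger factor Kr-h1, which responds to juvenile hormone as well as to ecdysone, read 5.29, 4.94 and 5.41 log2 at 5 h and 5.52, 6.24 and 6.75 at 0 h and changed by -0.97 ± 0.19 (limma adjusted p = 0.00727). The groups did not overlap, but the call was lost without array 2 of 5 h, at an adjusted p of 0.0652.

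The ecdysone receptor itself gave unequal readings. The dimmer of its 2 probe sets read 4.47, 4.15 and 4.02 log2 at 5 h and 5.02, 5.14 and 5.28 at 0 h and was called lower (-0.93 ± 0.10, limma adjusted p = 7.7e-05). Its larval mean was 5.78 ± 0.55 (SD, n = 7). The brighter one read 5.12, 4.99 and 4.89 log2 at 5 h and 4.87, 5.04 and 5.37 at 0 h, with overlapping groups and a change of -0.05 ± 0.11 (limma adjusted p = 0.876). The array annotation gives no isoform for either, and the gene was counted by the brighter one. Its partner usp changed by -0.16 ± 0.10 and was not called (limma adjusted p = 0.445). Genes that follow in the cascade were dim at both times. ftz-f1, a nuclear receptor of the mid-prepupal stage, averaged 2.63 ± 0.15 (SD, n = 7) at 0 h and 2.95 ± 0.25 (SD, n = 3) at 5 h. Eip93F, a factor of the late prepupal response, averaged 3.17 ± 0.17 and 2.97 ± 0.11, Hr3 3.57 ± 0.20 and 3.60 ± 0.09, Hr38 2.87 ± 0.19 and 2.69 ± 0.06, and Hr39 2.74 ± 0.11 and 2.51 ± 0.08. The lower quartile of all probe sets was 3.38, so all but Hr3 lay below it, and none of the 5 genes was called.

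**Figure D2:**
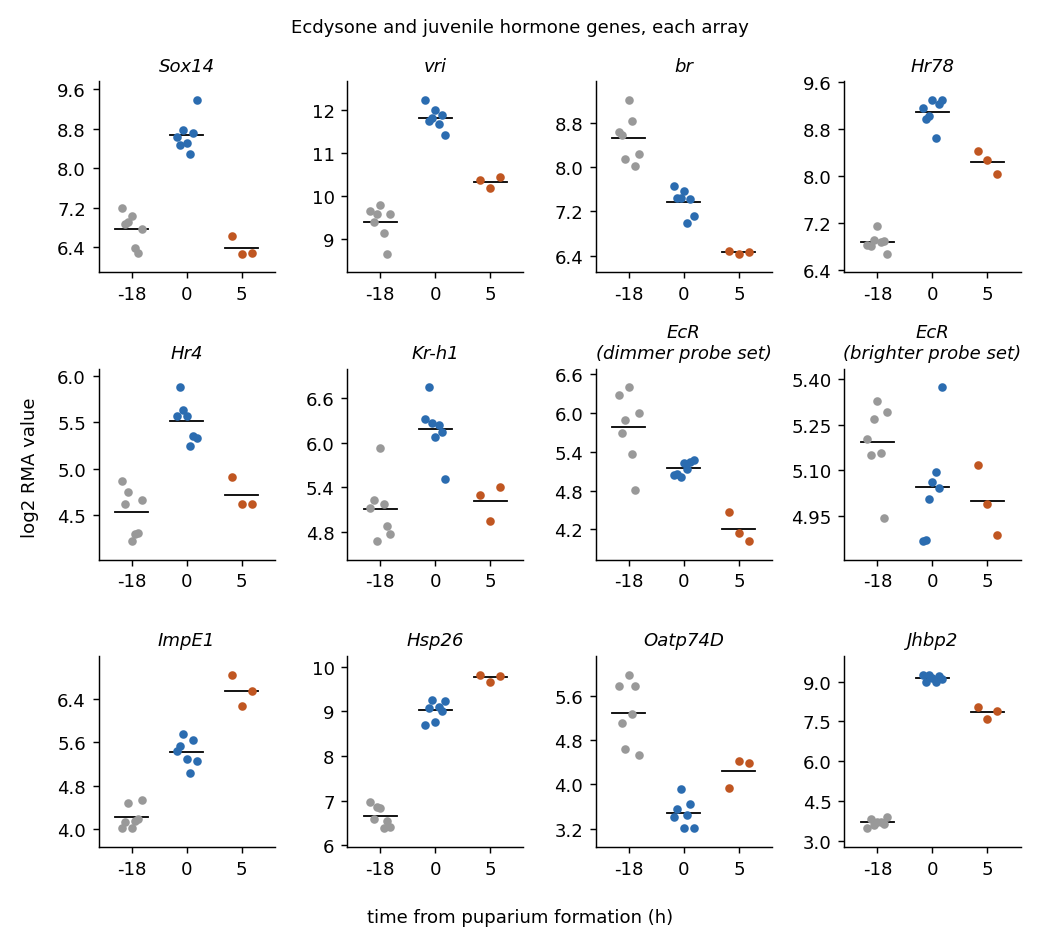
Log2 RMA values of 11 ecdysone and juvenile hormone genes in each array at -18, 0 and 5 h, with points for arrays and lines for group means. EcR is shown by 2 probe sets, of which the dimmer fell and the brighter was not called, and the larval arrays are given for orientation only.

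Genes that act further downstream of the hormone moved in either direction. Of 30 measured genes of ecdysone-inducible effectors and ecdysteroid metabolism, 2 were called higher (6.67%) and 1 lower (3.33%), with a median of -0.02. ImpE1, an ecdysone-inducible gene of imaginal discs, read 6.84, 6.26 and 6.54 log2 at 5 h and 5.04, 5.44 and 5.74 at 0 h. Every 5 h array was above every 0 h array, and the change was 1.13 ± 0.15 (limma adjusted p = 0.000403). It stood at 4.21 ± 0.21 (SD, n = 7) in the larva. A second ImpE1 probe set changed by 0.02 and was not called. Oatp74D, which encodes the importer that carries ecdysone into cells, read 3.93, 4.44 and 4.38 log2 at 5 h and 3.20, 3.45 and 3.92 at 0 h, a change of 0.76 ± 0.15 (limma adjusted p = 0.00825). Its 0 h values are close to the lower quartile of all probe sets, and the call was lost without array 2 or array 3 of 5 h, among other alternatives (adjusted p up to 0.118). rgn fell, and read 6.24, 6.12 and 6.12 log2 at 5 h and 7.09, 7.34 and 7.63 at 0 h (-1.19 ± 0.11, limma adjusted p = 2.26e-05). ImpL1, ImpE2 and Cyp18a1, the last an enzyme that inactivates ecdysteroids, were high in array 3 of 5 h only and were not called (limma adjusted p = 0.187, 0.243 and 0.324).

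The small heat shock gene Hsp26, one of a cluster that ecdysone induces in the late larva, read 9.83, 9.66 and 9.81 log2 at 5 h and 8.71, 9.08 and 9.27 at 0 h. It was higher in every 5 h array, by 0.74 ± 0.12 (limma adjusted p = 0.00226), and had stood at 6.66 ± 0.23 (SD, n = 7) in the larva. The neighbouring small heat shock gene Hsp27 changed by -0.04 ± 0.09 and was not called. Hsp26 was the only call among 13 heat shock genes, whose median was -0.04. Of 14 genes for juvenile hormone binding and response, 0 were called higher and 2 lower (14.3%), Kr-h1 and Jhbp2, with a median of -0.05. Jhbp2, a member of a family of juvenile hormone binding proteins, read 8.05, 7.60 and 7.90 log2 at 5 h and 8.99, 9.15 and 9.26 at 0 h (change -1.29 ± 0.10, limma adjusted p = 5.27e-06). Jhbp2 remained far above its larval mean of 3.70 ± 0.14 (SD, n = 7) at both times. Among 20 nuclear receptor genes, Hr78 and Hr4 were the 2 called lower (10%) and Hr51 the 1 called higher (5%), with a median of -0.06. Hr51, or unfulfilled, which gamma neurons need to regrow axons after pruning, read 6.60, 6.82 and 6.55 log2 at 5 h and 6.05, 6.14 and 6.37 at 0 h (0.47 ± 0.09, limma adjusted p = 0.00863). Its groups did not overlap, but the call was lost without array 2 of 5 h and with the replicate number as a block (adjusted p up to 0.0847).

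Some genes with a published role in neuronal pruning were called, mostly lower. Of 63 measured, 2 were called higher (3.17%) and 6 lower (9.52%), against 2.98% and 1.83% of all genes, and the median of -0.05 was near that of all genes. The 6 were Sox14, Kr-h1, Hr4, heca, Rpn6 and myo, of which Sox14, Kr-h1 and Hr4 are the ecdysone factors already described. heca (headcase), a regulator of pruning in the fly, read 8.22, 7.997 and 7.46 log2 at 5 h and 8.74, 8.78 and 8.85 at 0 h and fell by 0.90 (SE 0.12, limma adjusted p = 0.000581). myo (myoglianin), a TGF-beta ligand by which glia induce EcR in mushroom body neurons, read 6.21, 5.97 and 6.18 log2 at 5 h and 6.20, 6.79 and 6.83 at 0 h. Its groups overlapped, and the call (-0.53, limma adjusted p = 0.0437) was lost when any single array of 5 h was left out (adjusted p up to 0.241). The TGF-beta receptor babo, which receives this signal, changed by 0.10 ± 0.11 and was not called (limma adjusted p = 0.709).

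Several genes known for the pruning machinery gave no call. Mical, a Sox14 target that takes apart actin filaments, read 4.09, 3.87 and 5.59 log2 at 5 h and 3.69, 4.08 and 4.34 at 0 h for its brightest probe set, where array 3 of 5 h alone was high. The other 3 Mical probe sets changed by -0.35, -0.12 and -0.10. bol (boule), an RNA-binding inhibitor of pruning, changed by 0.19 ± 0.12, and drpr (draper), the engulfment receptor by which glia clear axon debris, by -0.01 ± 0.14 (limma adjusted p = 0.476 and 0.982). Dronc, the initiator caspase that acts in dendrite pruning, read 7.52, 7.42 and 7.55 log2 at 5 h and 7.07, 7.21 and 7.38 at 0 h. The groups of Dronc did not overlap, although the change of 0.29 ± 0.09 was not called (limma adjusted p = 0.102). Imp and chinmo, the temporal factors of mushroom body neuroblasts and their early-born neurons, averaged 4.36 ± 0.20 and 3.75 ± 0.30 (SD, n = 7) at 0 h, with changes of -0.22 ± 0.12 and 0.22 ± 0.15 and no call (limma adjusted p = 0.366 and 0.537).

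Many proteasome transcripts fell. A list of proteasome subunits and associated genes had 27 measured members. Of these, 11 were called lower (40.7%) and 0 higher, against 1.83% and 2.98% of all genes. The list's median was -0.43 against -0.04, and 24 of the 27 changes were below 0. The called genes came mainly from the regulatory cap that recognises ubiquitinated proteins. Of 10 Rpn subunits, the non-ATPase part of the cap, 7 were called lower, and of 4 Rpt subunits, its ATPases, 2 were. In the catalytic core the counts were 1 of 6 alpha subunits and 1 of 6 beta subunits. Median changes were -0.65, -0.51, -0.28 and -0.05 in that order. The difference between cap and core was not tested.

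Among the lid subunits, Rpn3 read 8.75, 8.62 and 8.66 log2 at 5 h and 9.43, 9.55 and 9.80 at 0 h, and all 5 h arrays were lower (-0.92 ± 0.09, limma adjusted p = 3.52e-05). Rpn12, another lid subunit, read 7.86, 7.89 and 7.78 log2 at 5 h and 8.42, 8.68 and 8.95 at 0 h (-0.84 ± 0.11, limma adjusted p = 0.000406). The base subunit Rpn2 read 8.44, 8.34 and 8.11 log2 at 5 h and 9.01, 9.23 and 9.29 at 0 h, a fall of 0.89 (SE 0.10, limma adjusted p = 5.86e-05). In these 3 genes the highest 5 h array stayed below the lowest 0 h array. Their larval means of 8.52 for Rpn3, 8.54 for Rpn12 and 7.96 for Rpn2 place Rpn3 and Rpn2 at 5 h above the larval mean and Rpn12 below it. The other called subunits were Rpn7 (-0.68), Rpn6 (-0.62), Rpt2 (-0.68), Rpn8 (-0.67), Prosalpha6 (-0.53), Rpn1 (-0.52), Rpt5 (-0.48) and Prosbeta2 (-0.43). Of the 11 calls, 6 held in every alternative run, and the number called lower was 6 without array 2 of 5 h and 7 without array 3.

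Among ubiquitin genes outside the proteasome the calls went in either direction. Of 42 measured, 1 was called higher and 2 lower (2.38% and 4.76%), with a median of -0.07. Ubi-p5E, a polyubiquitin gene, read 11.36, 11.05 and 10.87 log2 at 5 h and 11.40, 11.78 and 11.92 at 0 h and fell by 0.67 (SE 0.12, limma adjusted p = 0.00547). The groups did not overlap. Its probe set is of the kind that can read several ubiquitin genes, so the assignment of the fall to Ubi-p5E is uncertain. TER94, the AAA ATPase that unfolds ubiquitinated proteins, changed by -0.44 ± 0.11 (limma adjusted p = 0.0364), and Roc1a, the RING subunit of cullin ligases, by 0.33 ± 0.08 (limma adjusted p = 0.0367). Both calls were lost when any single array of 5 h was left out, with adjusted p up to 0.172 and 0.25.

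**Figure D3:**
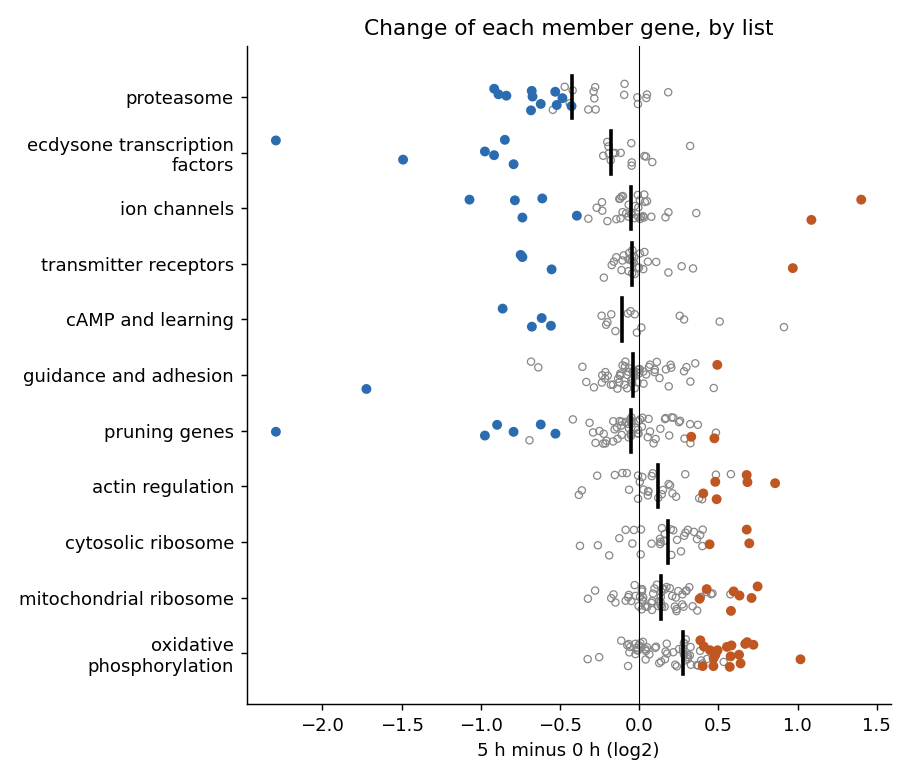
Change from 0 h to 5 h (log2) of each member gene of 11 lists, with called members filled, uncalled ones open and the list's median as a bar. Proteasome genes lie mostly below 0 (median -0.43) and genes of oxidative phosphorylation mostly above it (median 0.28).

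Genes of mitochondrial respiration rose where they changed. Of 72 measured genes of oxidative phosphorylation, 18 were called higher (25%) and 0 lower, against 2.98% and 1.83% of all genes. The median change was 0.28, and 58 of the 72 changes were above 0. The calls were spread over the respiratory chain, with 8 of 31 complex I genes named ND-, 3 of 7 of complex III and 6 of 13 of complex IV. Of 15 ATP synthase genes 1 was called, and of 3 complex II genes 0. The largest rise was that of UQCR-6.4, a small subunit of complex III, which read 7.28, 7.50 and 7.76 log2 at 5 h and 6.07, 6.48 and 6.88 at 0 h (1.02 ± 0.17, limma adjusted p = 0.0021). No 0 h array reached the lowest 5 h array. ND-B12, an accessory subunit of complex I, read 6.55, 6.38 and 6.62 log2 at 5 h and 5.66, 5.78 and 5.98 at 0 h (0.72 ± 0.09, limma adjusted p = 0.000342). COX7B, of complex IV, read 9.05, 8.88 and 8.95 log2 at 5 h and 8.10, 8.35 and 8.56 at 0 h (0.64 ± 0.10, limma adjusted p = 0.00185). These 3 genes had higher larval means, 9.17 for UQCR-6.4, 6.66 for ND-B12 and 9.87 for COX7B. The calls of 8 of the 18 genes held in every alternative, and the number called was 9 without array 1 of 5 h and 11 without array 3.

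The same direction was seen in ribosomal protein genes, in smaller numbers. Of 66 mitochondrial ribosomal protein genes, 7 were called higher (10.6%) and 0 lower, with a median of 0.14. mRpL30 read 6.77, 6.83 and 6.71 log2 at 5 h and 5.96, 6.11 and 6.44 at 0 h (0.60 ± 0.10, limma adjusted p = 0.00279), and was the only one of the 7 whose call held in every alternative. mRpS33 and mRpL33 rose by 0.75 ± 0.14 and 0.71 ± 0.12 (limma adjusted p = 0.00682 and 0.0038). Of 32 cytosolic ribosomal protein genes, 3 were called higher (9.38%) and 0 lower, with a median of 0.18. RpL23 read 10.85, 10.92 and 10.92 log2 at 5 h and 10.07, 10.18 and 10.34 at 0 h, without overlap (0.70 ± 0.08, limma adjusted p = 0.00015). RpL39 rose by 0.68 ± 0.12 and RpS15 by 0.44 ± 0.11 (limma adjusted p = 0.00301 and 0.0393), and the call of RpS15 was lost when any single array of 5 h was left out (adjusted p up to 0.166). Translation factors gave 2 rises among 43 genes (4.65%) and a list median of 0.01. They were those of the initiation factor genes eIF1 (0.71 ± 0.09, limma adjusted p = 0.000342) and eIF3i (0.45 ± 0.10, limma adjusted p = 0.0141). The call of eIF3i was lost without array 1 or array 2 of 5 h.

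A property of the genes moved with these groups. The median gene span in the RefSeq Release 6 annotation was 1427 bases among genes called higher, 2385 among all genes and 5600.5 among genes called lower. Among genes with a mean level of at least 7, the median change fell from 0.24 in the 227 genes with the shortest spans through 0.02 in the 226 of middle span to -0.14 in the 226 with the longest. Genes of oxidative phosphorylation had a median span of 1100 bases, cytosolic ribosomal protein genes 1086 and mitochondrial ribosomal protein genes 915.5. Proteasome genes, which went the other way, had a median span of 1387. The 3-prime bias of the eIF4a control probe sets given above averaged 2.81 at 0 h and 2.58 at 5 h. For the actin and gapdh controls it was also lower at 5 h, at 2.76 against 3.08 and 2.46 against 2.74. None of these differences passed the exact permutation test (adjusted p = 0.219 for each). The part of gene length in the rises was not tested.

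Other genes of energy metabolism gave calls in some lists. Of 13 genes of the tricarboxylic acid cycle 2 were called higher (15.4%), with a list median of -0.01. They were Mdh1 (0.44 ± 0.10, limma adjusted p = 0.0174) and Idh (0.39 ± 0.09, limma adjusted p = 0.02). Each call was lost without array 1 or array 2 of 5 h. Of 11 glycolysis genes 0 were called in limma's test and 1 had an unadjusted p under 0.05, although 8 changes were above 0 and the median was 0.18. Of 29 genes of the vacuolar proton ATPase 2 were called higher (6.9%), with a median of -0.01. They were VhaM9.7-b (0.63 ± 0.10, limma adjusted p = 0.00154) and Vha16-1 (0.46 ± 0.11, limma adjusted p = 0.0232). Vha16-1 lost its call when any single array of 5 h was left out.

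On a list of actin regulators, the genes that were called rose. Of 35 measured genes of that list, 6 were called higher (17.1%) and 0 lower, with a median of 0.12 and 26 changes above 0. The actin genes sals and Svil are not on the list and were called lower, as described below. Fhos, a formin that assembles actin filaments, read 4.71, 4.23 and 4.72 log2 at 5 h and 3.58, 3.66 and 3.98 at 0 h. The 5 h arrays were higher without overlap (0.86 ± 0.12, limma adjusted p = 0.000489), and this was the only one of the 6 calls that held in every alternative. A second Fhos probe set changed by -0.01 and was not called. tsr, the fly cofilin, which severs actin filaments, read 10.63, 10.35 and 10.25 log2 at 5 h and 9.42, 9.77 and 10.04 at 0 h (0.68 ± 0.15, limma adjusted p = 0.0152). cher, the crosslinker filamin, read 3.96, 4.01 and 4.62 log2 at 5 h and 3.34, 3.45 and 3.74 at 0 h (0.68 ± 0.14, limma adjusted p = 0.00863). In each gene the groups were apart, but the call of tsr was lost without array 1 or array 2 of 5 h and that of cher without array 3 (adjusted p up to 0.124 and 0.134). The remaining 3 were the Arp2/3 complex genes Arpc5 (0.48) and Arpc3A (0.49) and twf (0.40), a twinfilin, and each lost its call when any single array of 5 h was left out.

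Of 39 genes of microtubules and motors, 1 was called higher (2.56%) and 2 lower (5.13%), with a median of -0.07. robl, a dynein light chain, read 8.86, 8.87 and 8.85 log2 at 5 h and 7.82, 8.25 and 8.39 at 0 h and rose by 0.71 (SE 0.13, limma adjusted p = 0.00506). spas (spastin), which severs microtubules, read 6.91, 6.52 and 6.59 log2 at 5 h and 6.88, 7.58 and 8.002 at 0 h. Its groups overlapped, its change was -0.87 ± 0.17 (limma adjusted p = 0.00919), and its call was lost without array 2 or array 3 of 5 h. The kinesin-associated protein gene Kap3 changed by -0.54 ± 0.14 (limma adjusted p = 0.0388) and lost its call when any single array of 5 h was left out (adjusted p up to 0.214).

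Genes for membrane excitability and transmission changed one by one and in either direction. The vesicular transporter gene prt (portabella), which is active in the mushroom body, read 4.33, 4.20 and 4.16 log2 at 5 h and 5.47, 5.88 and 6.53 at 0 h. All 5 h arrays were lower than all 0 h arrays, a 3.31-fold fall (-1.73 ± 0.17, limma adjusted p = 3.12e-05), and the larval mean was higher still at 8.54 ± 0.34 (SD, n = 7). Of the 26 genes of synaptic vesicles and active zones, the other call was Frq1, a neuronal calcium sensor, which changed by -0.67 ± 0.17 (limma adjusted p = 0.0429) with overlapping groups and lost its call when any single array of 5 h was left out. The list's median was -0.10.

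Of 41 genes of ion channels and excitability, 2 were called higher and 5 lower (4.88% and 12.2%), with a median of -0.05. CngA, a cyclic nucleotide-gated cation channel, read 7.86, 7.90 and 7.97 log2 at 5 h and 5.51, 6.69 and 6.88 at 0 h. The 5 h arrays lay close together above all 0 h arrays (1.40 ± 0.23, limma adjusted p = 0.0021), and the larval mean was 3.29 ± 0.28 (SD, n = 7). A second CngA probe set, dimmer, changed by -0.16 and was not called. Sh (Shaker), a voltage-gated potassium channel, read 6.37, 6.55 and 6.36 log2 at 5 h and 7.05, 7.13 and 7.43 at 0 h, a change of -0.78 ± 0.10 (limma adjusted p = 0.000342). The groups did not overlap, and the other 3 Sh probe sets changed by -0.44, -0.20 and -0.24 without a call. Ca-alpha1D, an L-type calcium channel subunit, read 5.75, 5.50 and 5.56 log2 at 5 h and 5.91, 6.21 and 6.52 at 0 h (-0.61 ± 0.11, limma adjusted p = 0.00548). The potassium channel genes sei (-0.39) and Elk (-1.07) were also called lower, each losing the call when any single array of 5 h was left out (adjusted p up to 0.144 and 0.185). nrv2, a beta subunit of the sodium pump, rose by 1.09 ± 0.24 (limma adjusted p = 0.0195), with the same loss of its call (adjusted p up to 0.0957).

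Of 33 transmitter receptor genes, 1 was called higher (3.03%) and 3 lower (9.09%), with a median of -0.04. GluRIA, an ionotropic glutamate receptor, read 7.28, 7.25 and 7.30 log2 at 5 h and 6.20, 6.29 and 6.52 at 0 h. The 5 h arrays were nearly equal and above all others (0.97 ± 0.08, limma adjusted p = 8.75e-06). The serotonin receptor gene 5-HT2A read 6.19, 5.72 and 5.83 log2 at 5 h and 6.44, 6.64 and 6.92 at 0 h (-0.75 ± 0.11, limma adjusted p = 0.00134). nAChRalpha2, a nicotinic acetylcholine receptor subunit, read 8.93, 9.04 and 8.77 log2 at 5 h and 9.39, 9.42 and 9.64 at 0 h (-0.55 ± 0.09, limma adjusted p = 0.00172). Each of these 3 calls held in every alternative, and the groups did not overlap in any of them. Rdl, the subunit of the GABA-gated chloride channel, also counted among the ion channels, changed by -0.74 ± 0.15 (limma adjusted p = 0.00842) and lost its call without array 2 or array 3 of 5 h.

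Of 18 genes of cyclic AMP signalling and learning, 4 were called lower (22.2%) and 0 higher, with a median of -0.11. Ac78C, an adenylyl cyclase, read 5.70, 5.73 and 5.55 log2 at 5 h and 6.11, 6.57 and 6.69 at 0 h (-0.86 ± 0.11, limma adjusted p = 0.000342). Its groups were apart, and this was the only one of the 4 calls that held in every alternative. Ac13E, another adenylyl cyclase, changed by -0.62 ± 0.16, and 14-3-3zeta, or leonardo, by -0.56 ± 0.12 (limma adjusted p = 0.0378 and 0.0169). dnc (dunce), the phosphodiesterase that degrades cyclic AMP, read 8.04, 7.37 and 7.43 log2 at 5 h and 7.95, 8.45 and 8.69 at 0 h. One of the 5 h arrays of dnc lay within the 0 h range, and the call (-0.68, limma adjusted p = 0.0448) was lost in most alternatives. Of 33 genes of neuropeptides and their processing, 0 were called higher and 1 lower (3.03%). It was Phm, the enzyme that begins the amidation of peptides, which read 7.97, 7.75 and 7.43 log2 at 5 h and 8.84, 9.02 and 9.40 at 0 h (-1.36 ± 0.14, limma adjusted p = 3.12e-05).

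**Figure D4:**
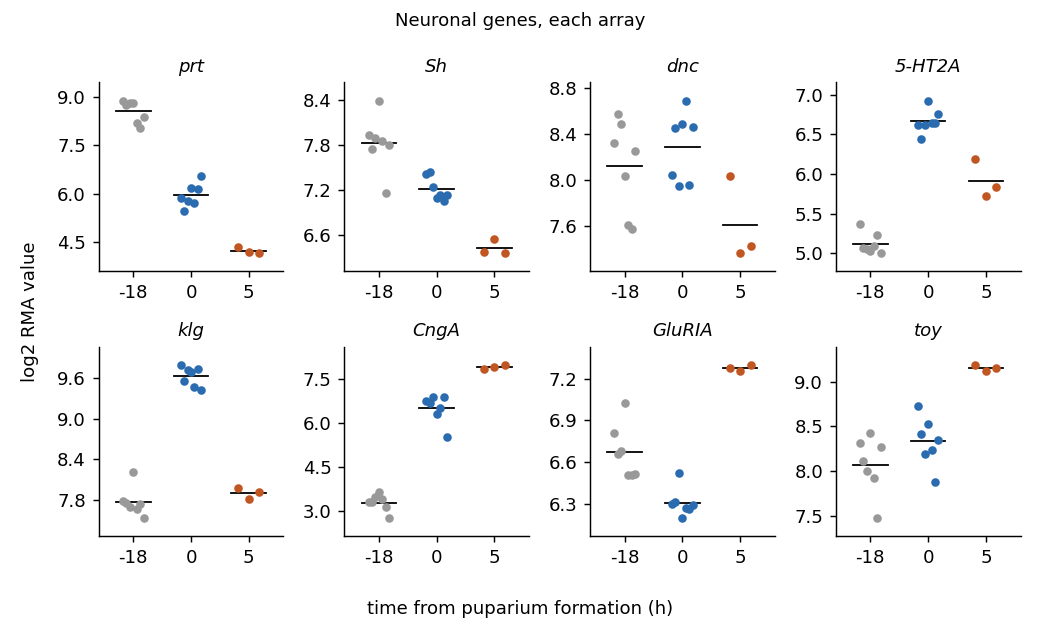
Log2 RMA values of 8 neuronal genes in each array at -18, 0 and 5 h, with points for arrays and lines for group means. prt, Sh, 5-HT2A and klg were lower in all 3 arrays of 5 h than in all 7 of 0 h, CngA, GluRIA and toy were higher, and 1 array of dnc overlapped the 0 h range.

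Cell surface and signalling genes gave few calls, some of them large. Of 60 genes of axon guidance and adhesion 1 was called higher and 1 lower (1.67% each, against 2.98% and 1.83% of all genes), with a median of -0.04. klg (klingon), an immunoglobulin-family adhesion molecule needed for long-term memory, read 7.97, 7.81 and 7.93 log2 at 5 h and 9.42, 9.69 and 9.79 at 0 h. The groups were widely separated (-1.72 ± 0.10, limma adjusted p = 1.51e-07), and the level at 5 h was near the larval mean of 7.77 ± 0.21 (SD, n = 7). Drl-2, a receptor of the Ryk family that binds Wnt ligands, read 8.80, 8.58 and 8.60 log2 at 5 h and 7.997, 8.17 and 8.41 at 0 h (0.49 ± 0.10, limma adjusted p = 0.00995). Its call was lost without array 1 of 5 h, and its other 2 probe sets changed by -0.10 and -0.17. Of the 21 genes of the beat and side family 0 were called by limma and 1 had an unadjusted p under 0.05 (median -0.03).

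Of 41 signalling genes (Wnt, Notch, JNK, EGFR and TGF-beta pathways), 1 was called higher (2.44%) and 2 lower (4.88%), with a median of -0.06. msn (misshapen), a Ste20-family kinase upstream of JNK, read 4.82, 5.16 and 4.43 log2 at 5 h and 5.91, 6.71 and 6.88 at 0 h (-1.68 ± 0.20, limma adjusted p = 0.000159). At 5 h it was near its larval mean of 4.57 ± 0.31 (SD, n = 7). spi (spitz), a ligand of the EGF receptor, read 7.87, 7.88 and 7.77 log2 at 5 h and 7.13, 7.24 and 7.56 at 0 h (0.55 ± 0.09, limma adjusted p = 0.00255). For msn and spi no 5 h array reached the 0 h range. The second of the 2 falls was that of myo.

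The deepest falls of the whole comparison included genes of no list. The largest falls and rises were taken only from called probe sets without overlap. That their groups lie apart follows from that choice and is no further support. Sol1 read 5.57, 4.76 and 4.74 log2 at 5 h and 7.63, 8.28 and 8.52 at 0 h, an 8.69-fold fall (-3.12 ± 0.20, limma adjusted p = 1.05e-06). The 0 h arrays were all far above the 5 h arrays. Its other 2 probe sets, dimmer, changed by -0.26 and -0.06 and were not called. sals, known from muscle as a gene that lengthens sarcomeric actin filaments, read 6.50, 6.01 and 9.03 log2 at 5 h and 9.43, 10.14 and 10.34 at 0 h. Array 3 of 5 h was well above the other 2 and still below all 0 h arrays (-2.83 ± 0.46, limma adjusted p = 0.0021). Without that array its change was -3.75 (adjusted p = 1.3e-06). Dh44-R1, a receptor of the diuretic hormone Dh44, read 5.27, 4.86 and 4.83 log2 at 5 h and 6.63, 7.23 and 7.86 at 0 h (-2.23 ± 0.23, limma adjusted p = 3.25e-05). At 5 h it was close to its larval mean of 5.38 ± 0.27 (SD, n = 7).

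The transporter gene MFS3 read 4.41, 4.91 and 4.31 log2 at 5 h and 6.18, 6.64 and 6.92 at 0 h (-2.04 ± 0.15, limma adjusted p = 2.48e-06), continuing down from a larval mean of 8.50 ± 0.13 (SD, n = 7). rdo, a leucine-rich repeat gene, came near the lower quartile of all probe sets at 5 h, with 3.18, 3.53 and 3.47 against 4.69, 5.15 and 5.81 at 0 h (-1.87 ± 0.19, limma adjusted p = 3.12e-05). Svil, the actin-binding supervillin, read 6.80, 6.36 and 6.67 log2 at 5 h and 8.11, 8.25 and 8.51 at 0 h (-1.68 ± 0.11, limma adjusted p = 1.35e-06). These groups did not overlap. A second Svil probe set was also called lower, by 0.70 (limma adjusted p = 0.0223), and the other 4 were not. Genes of lipid and phosphoinositide metabolism and signalling were among the deepest falls. They were Sply, the sphingosine-1-phosphate lyase (-1.70 ± 0.15, limma adjusted p = 1.52e-05), and PIP5K59B, a phosphatidylinositol phosphate kinase (-1.60 ± 0.12, limma adjusted p = 2.77e-06). A further one was Pdk1, a kinase of the phosphoinositide 3-kinase pathway (-1.63 ± 0.20, limma adjusted p = 0.000192). The peptidase gene Nep1, a neprilysin, fell by 1.62 (SE 0.15, limma adjusted p = 1.74e-05). PIP5K59B, Pdk1 and Nep1 each had dimmer probe sets that were not called, with changes from -0.28 to 0.04. Among genes with annotation names only, CG12910 (-1.72 ± 0.18), CG32647 (-1.38 ± 0.21) and CG34354 (-1.36 ± 0.19) fell furthest (limma adjusted p = 5.91e-05, 0.00146 and 0.000645). Dimmer second probe sets of klg, sals, Asph, Cad96Cb, Ac78C, MTF-1 and CG32647 were not called and changed by -0.23 to 0.06.

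The largest rise was that of CG30053, a gene with an annotation name only, which read 8.06, 7.98 and 7.997 log2 at 5 h and 4.78, 5.05 and 5.19 at 0 h. The groups were separated by more than 2 log2 units, a 7.89-fold rise (2.98 ± 0.09, limma adjusted p = 1e-10). Asph, an aspartyl beta-hydroxylase, read 5.44, 5.75 and 7.22 log2 at 5 h and 3.72, 4.02 and 4.12 at 0 h. Array 3 was the highest of the 5 h arrays by more than 1 log2 unit (2.14 ± 0.26, limma adjusted p = 0.000189), and without it the change was 1.60 (adjusted p = 7.49e-06). Sirup, an assembly factor of mitochondrial complex II, read 7.96, 7.72 and 9.16 log2 at 5 h and 6.15, 6.52 and 6.85 at 0 h (1.79 ± 0.24, limma adjusted p = 0.000403). Here too array 3 was the highest, and without it the change was 1.34 (adjusted p = 0.000262). tpr rose from the dimmest part of the arrays, with 2.48, 2.55 and 2.80 at 0 h and 4.90, 4.09 and 4.14 at 5 h (1.79 ± 0.14, limma adjusted p = 5.27e-06).

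Several further rises concerned cell surface, lipid and sugar metabolism. bdl (borderless), an immunoglobulin-family adhesion protein, read 6.74, 6.60 and 5.75 log2 at 5 h and 4.08, 4.67 and 5.04 at 0 h (1.75 ± 0.21, limma adjusted p = 0.000145). The cadherin gene Cad96Cb read 5.50, 5.30 and 5.20 log2 at 5 h and 3.63, 4.07 and 4.28 at 0 h (1.34 ± 0.13, limma adjusted p = 3.12e-05). In bdl and Cad96Cb every 5 h array was higher. Treh, the trehalase that splits the blood sugar trehalose, read 7.81, 7.18 and 7.24 log2 at 5 h and 5.61, 5.66 and 6.14 at 0 h (1.58 ± 0.16, limma adjusted p = 3.12e-05). wun2, a lipid phosphate phosphatase, rose by 1.58 ± 0.14, and the lipase gene Lip4 by 1.48 ± 0.11 (limma adjusted p = 1.43e-05 and 2.48e-06). cer (crammer), a cathepsin inhibitor needed for long-term memory, read 7.45, 7.75 and 8.50 log2 at 5 h and 6.16, 6.36 and 6.80 at 0 h (1.42 ± 0.19, limma adjusted p = 0.000474). The annexin gene AnxB9 rose by 1.28 ± 0.13 and the calcium-binding regucalcin by 1.43 ± 0.27 (limma adjusted p = 4.14e-05 and 0.0055), the latter losing its call with all 17 arrays, with the replicate number as a block and with 0 h arrays 1 to 3 only (adjusted p up to 0.0606). CG5080 and CG4306 were the other large rises among genes with annotation names, by 1.55 ± 0.33 and 1.46 ± 0.11 (limma adjusted p = 0.0147 and 3.48e-06), and CG5080 lost its call without array 2 or array 3 of 5 h.

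Lists of stress, defence and housekeeping genes held 0 to 3 calls each. Of 18 apoptosis genes, 1 was called, the Bcl-2 family gene Debcl, which read 6.23, 6.40 and 6.78 log2 at 5 h and 5.60, 5.84 and 6.10 at 0 h (0.67 ± 0.13, limma adjusted p = 0.00657). Its call was lost without array 3 of 5 h (adjusted p up to 0.12). Of 28 autophagy genes, 0 were called higher and 1 lower, the cargo adaptor gene ref(2)P (-0.38 ± 0.09, limma adjusted p = 0.0364), whose call was lost when any single array of 5 h was left out. The autophagy median was -0.13, and 24 of 28 changes were below 0. Of 34 glutathione S-transferase genes, GstS1 (0.80) and GstE3 (0.66) were called higher and GstZ2 (-1.17) lower, with a median of -0.01. Of 80 cytochrome P450 genes, Cyp9c1 rose by 1.19 ± 0.12 and Cyp4g15 fell to 5.99 ± 0.12 (SD, n = 3) from 6.63 ± 0.13 (SD, n = 7) (limma adjusted p = 3.45e-05 and 0.000966). Of 16 genes of metal handling, the transcription factor gene MTF-1 was called lower (-0.79 ± 0.14, limma adjusted p = 0.00382).

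Of 25 antimicrobial and immune genes, Drsl5, a drosomycin-like peptide gene, was called higher (1.15) and cact, the inhibitor of Toll signalling, lower (-0.60), with limma adjusted p of 0.0429 and 0.0166. Drsl5 was highest in array 3 of 5 h and lay within the 0 h range in array 1. It lost its call in most alternatives, among them those without array 2 or array 3 of 5 h (adjusted p up to 0.205). Of 29 genes of RNA binding and translation control Rox8 was called lower (-0.46 ± 0.09, limma adjusted p = 0.0076), of 93 cuticle protein genes Cpr76Ba (-0.32 ± 0.08, limma adjusted p = 0.0385), and of 11 circadian clock genes vri. The call of Rox8 was lost without array 1 or array 3 of 5 h, and that of Cpr76Ba when any single array of 5 h was left out. In limma's test 0 genes were called among 8 of the CCT chaperonin, 24 of DNA replication and the cell cycle, 15 Rab GTPases, 30 aminoacyl-tRNA synthetases and 2 histones, and 4 of these 79 had an unadjusted p under 0.05. Medians of these 5 lists ran from -0.05 to 0.07.

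The captured cells were checked by markers. ey (eyeless), a transcription factor of mushroom body neurons, read 8.73, 8.81 and 8.69 log2 at 5 h and 8.42, 8.63 and 9.11 at 0 h and did not pass the test (limma adjusted p = 0.791). Of 14 mushroom body genes, CngA and toy were called higher (14.3%) and prt, dnc and mamo lower (21.4%). The call of mamo was lost when any single array of 5 h was left out (adjusted p up to 0.553 over the alternatives). Its other probe sets changed by -0.055, -0.095 and -0.202 and were not called. The summed signal of the 14 genes ran from 11.40 to 11.80 log2 at 0 h and 11.50 to 11.70 at 5 h. toy (twin of eyeless), a transcription factor paired with ey, read 9.18, 9.12 and 9.15 log2 at 5 h and 7.88, 8.35 and 8.73 at 0 h (0.82 ± 0.14, limma adjusted p = 0.00287). In general neuronal markers the sum was 8.88 to 9.13 at 0 h and 8.95 to 9.35 at 5 h, with 0 of 8 called by limma and 0 at an unadjusted p under 0.05.

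Glial transcripts were well above the dim range at both times. Of 18 glial markers 2 were called higher (11.1%) and 0 lower, against 2.98% and 1.83% of all genes. The list's median was -0.06, and 13 of the 18 changes were below 0. The summed signal of the list was 10.54 to 11.18 at 0 h, a range that held the 5 h arrays, at 10.89 to 10.93. The glial gene wrapper, which encodes a surface protein of glia that ensheathe neurons, read 8.14, 8.47 and 8.37 log2 at 5 h and 7.31, 7.56 and 7.86 at 0 h (0.77 ± 0.13, limma adjusted p = 0.00363). Its 5 h arrays were all higher, while repo, the transcription factor that defines most glia, read 7.71, 7.35 and 7.53 log2 at 5 h and 6.99, 7.91 and 8.21 at 0 h, with overlapping groups (-0.17 ± 0.22, limma adjusted p = 0.765). nrv2, the other glial marker called, is among the ion transport genes above. Of 16 hemocyte and basement membrane markers, SPARC (0.44) and LanA (0.60) were called higher (12.5%). Both calls were lost without array 2 or array 3 of 5 h. The summed signal of this list was 8.27 to 8.48 at 0 h and 8.49 to 8.62 at 5 h, higher at 5 h without overlap. Its mean log2 signal did overlap, at 3.71 to 3.85 at 0 h and 3.82 to 3.97 at 5 h. Of the 16 changes 9 were above 0 and 7 below, and 7 of the genes had a mean under the lower quartile. The part of glia and blood cells in the results was not tested.

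**Figure D5:**
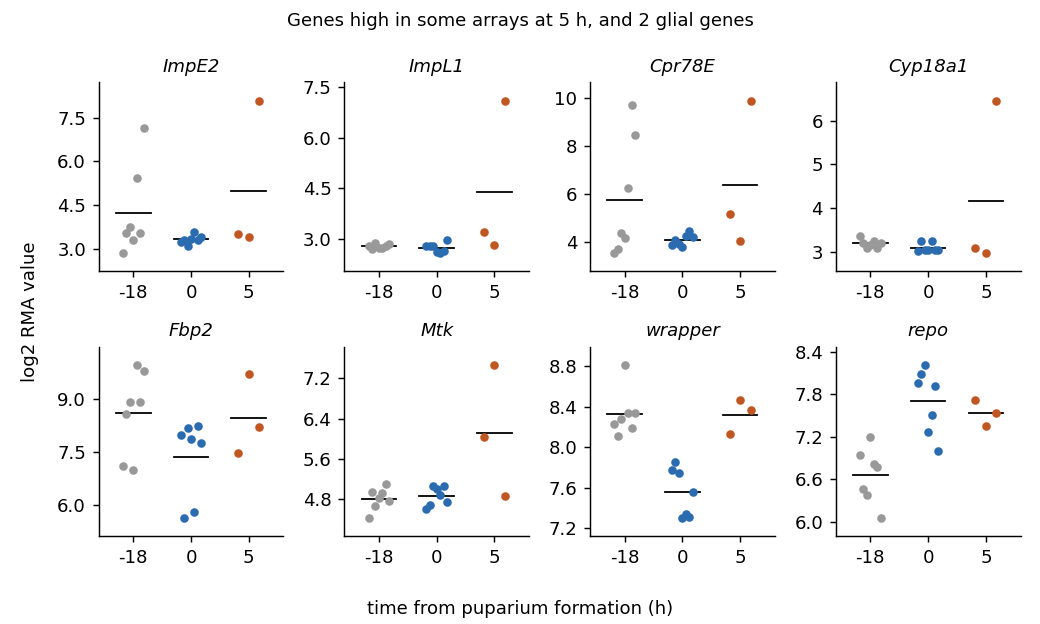
Log2 RMA values in each array at -18, 0 and 5 h of 6 genes that were high in some arrays of 5 h and of the glial genes wrapper and repo, with points for arrays and lines for group means. ImpE2, ImpL1, Cpr78E and Cyp18a1 are high in array 3 of 5 h, Fbp2 is high in array 2, and Mtk is highest in array 2 and next highest in array 1.

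Array 3 of 5 h carried transcripts that were far lower in its 2 companions. Cpr78E, a cuticle protein gene, read 5.16, 4.05 and 9.90 log2 in the 3 arrays of 5 h and at most 4.44 at 0 h. ImpE2 read 3.50, 3.41 and 8.08, ImpL1 3.22, 2.82 and 7.09 and Cyp18a1 3.08, 2.97 and 6.46, against at most 3.59, 2.98 and 3.25 at 0 h. The chitin-related genes obst-A and Cht5 and the serpin gene Spn43Aa followed the same pattern, with 8.34, 7.63 and 9.82 in array 3 and no more than 5.08, 5.55 and 5.74 in arrays 1 and 2. None of these 7 genes was called. In arrays 1 and 2, obst-A read 5.08 and 4.92, also above the highest 0 h array, at 4.69. It was called without array 3, with a change of 0.47 (limma adjusted p = 0.0403). Of 12 epidermal and cuticle markers 0 were called by limma and 0 had an unadjusted p under 0.05, and their summed signal was 8.68 and 8.66 log2 in arrays 1 and 2 of 5 h and higher in array 3, against 8.62 to 8.83 at 0 h.

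Array 2 of 5 h was high in fat body genes. Fbp2 read 7.47, 9.71 and 8.21 in the 3 arrays of 5 h, against 5.64, 7.88 and 8.22 at 0 h. Obp99b read 5.83, 8.17 and 6.29 and at most 6.52 at 0 h, and the antimicrobial peptide gene Mtk 6.03, 7.46 and 4.88 and at most 5.07. Mtk was thus above all 0 h arrays in arrays 1 and 2 of 5 h, and it was not called (limma adjusted p = 0.0601) but was called without array 3, with a change of 1.88 (adjusted p = 0.000816). Of 11 fat body markers 0 were called by limma, and 2 had an unadjusted p under 0.05. Their summed signal ran from 9.88 to 10.73 at 0 h, with arrays 2 and 5 lowest, and 10.37 to 11.59 at 5 h. Of 16 muscle, 12 salivary gland, 13 neuroblast and 9 tracheal markers 0 were called by limma (6 of these 50 at an unadjusted p under 0.05), and of 11 photoreceptor markers 1 was called lower, boss (-0.38). Muscle and salivary gland signals overlapped between the times, with sums of 9.13 to 9.27 and 9.17 to 9.26 for muscle and of 7.69 to 7.87 and 7.63 to 7.72 for the salivary gland. The photoreceptor sums of 7.22 to 7.39 at 0 h and 7.19 to 7.25 at 5 h overlapped too. Neuroblast markers summed to 9.08 to 9.64 at 0 h and 8.90 to 8.95 at 5 h, lower at 5 h without overlap. Their mean log2 signals did overlap, at 4.46 to 4.69 at 0 h and 4.45 to 4.52 at 5 h. The median change of these markers was -0.07. Tracheal markers summed to 6.84 to 7.06 at 0 h and to 7.03, 7.02 and 8.90 log2 in the arrays of 5 h, where array 3 was far above the rest. The part of these cell types in the results was not tested.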

How the data were processed

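Gene expression was measured in laser-captured mushroom body neurons on Affymetrix Drosophila Genome Arrays. The deposited values are log2 RMA signals per probe set, which the authors computed by RMA in the Affymetrix Expression Console software, as the submitters' processing notes say. Its version and the set of arrays normalised together are not stated in these sources. The log2 values were used as deposited. Groups came from the labels, with 0 columns unmapped. Symbols came from the array annotation and the RefSeq gene table (Release 6). There were 12443 probe sets with a single symbol (45 of them absent from that table), 327 with several and 1196 with none. Only probe sets with a single symbol were named or entered lists. A gene was represented by its probe set with the highest mean over the 10 arrays (1209 of 10844 genes had several). Among 98 genes with several probe sets and any call, 96 had only some of them called and 0 were called in opposite directions.

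A linear model with the 2 groups was fitted to the 10 arrays with limma 3.58.1 in R 4.3.3 (lmFit and eBayes, without a block), with Benjamini-Hochberg adjustment over 13966 probe sets and a threshold of 0.05. Tested on simulated data of this size, the fit called 97% of 67 probe sets shifted by 1 log2 and 56.7% of 67 shifted by 0.5, and 6 of 13765 left as they were. The simulated noise was normal and independent between probe sets and between arrays. These shares therefore do not cover the differences between arrays described above. Precision is limited by the number of arrays, as there is no read depth.

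The comparison, the 39 gene lists and 11 marker lists were chosen with earlier results of these data known. Named genes were, among called probe sets without overlap, the 15 largest rises and the 15 largest falls of genes with proper symbols, the 3 largest of each among genes with annotation names, the 3 members of each list with the smallest p, and a fixed set of ecdysone, pruning and marker genes. Other list members, and genes high in 1 array, were named after their values were seen. Alternatives were all 17 arrays, a replicate block, array subsets by spike-in signal, other scalings, a trended robust fit (with statmod 1.5.0), a filter on dim probe sets, the median over the probe sets of a gene, and leaving out each array.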

Additional observations from a re-analysis of the deposited data

Results flagged for a closer look

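In 15 of 231 named probe sets, 1 of the 7 arrays of 0 h lay far from the other 6 by Dixon's test, a flag that chance gives to about 5 percent of groups. Array 7 was the outlying array in 7 of the 15, each time as the lowest. It read 3.09 log2 for chinmo (others 3.75 to 3.97), 9.16 for unc-13 (others 9.57 to 9.73), 7.69 for LeuRS (others 8.43 to 8.75), 6.11 for Ac78C (others 6.50 to 6.69), 3.81 for nrv2 (others 4.86 to 5.42), 6.20 for Pdk1 (others 6.91 to 7.41) and 5.51 for CngA (others 6.31 to 6.88). Array 3 stood apart in GluRIA (6.52, others 6.20 to 6.31), PolA1 (5.93, others 5.40 to 5.60) and Asph (3.72, others 3.95 to 4.12). Array 2 was the highest for Fhos (3.98, others 3.58 to 3.70) and drpr (9.37, others 8.54 to 8.85). Array 5 was the highest for Hr38 (3.26, others 2.68 to 2.91) and the lowest for Ubi-p5E (11.40, others 11.73 to 11.92), and array 4 the lowest for VhaM9.7-c (4.34, others 4.83 to 5.12).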

How the results depend on the processing

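The number of probe sets called, 608, ran from 471 to 672 over the alternatives other than leaving out single arrays, and from 330 to 711 when single arrays were left out (204 to 408 higher, 117 to 303 lower), with the lowest counts without an array of 5 h (378, 330 and 348 without arrays 1, 2 and 3). With the replicate number as a block 588 were called, of which 235 were higher and 353 lower, and 378 of them were shared in direction with the 608. No pairing of arrays by replicate number was seen, though 3 pairs are too few to exclude one. Deviations of same-numbered arrays correlated at 0.05, -0.07 and 0.01, and 0 of 3 arrays of 5 h correlated best with the 0 h array of their number. Among alternatives chosen after seeing the data, 408 were lower with 0 h arrays 1 to 3 only, and 555 were called without the 2 arrays of 0 h low in fat body transcripts. Centring on array medians gave 425 higher and 189 lower, and quantile normalisation 378 and 253. Ecdysone transcription factors called lower were 5 or 6 in every alternative, proteasome genes 6 to 15 (6 to 14 leaving out single arrays) and genes of oxidative phosphorylation called higher 9 to 21 (the same range leaving out single arrays). Of 139 named probe sets that were called, 72 kept the call in every alternative and 67 lost it in at least 1. Taking per gene the median over its probe sets, Drl-2 changed by -0.17 and dnc by 0.16, opposite in sign and not called, and br, Sh, Sol1, Nep1, PIP5K59B, CG34354, mamo and Vha16-1 lost their calls, as each has probe sets that were not called. Of 24 uncalled ones that some alternative called, the brighter EcR probe set was called only by that median, which takes in the other EcR probe set. The number of arrays limits precision. All arrays of 5 h are in the lower set by spike-in signal, within which 587 probe sets were called, and with that set as a block, also chosen after seeing the data, 471.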
